A study of Mus musculus with 4 samples.

Results

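The ZBTB family is described here across CD8 T cells that overexpress the transcription factor BATF and cells with an empty vector. Members are all genes of the deposited table whose symbol starts with Zbtb followed by a digit, 42 of 24312 listed genes. Within the family the symbol alone decided which genes are members, but the family was chosen with earlier results of these data known. The cells were P14 CD8 T cells on a C57BL/6 background, whose transgenic receptor recognises the viral peptide gp33. In the BATF group the cells carried a retrovirus that expresses BATF together with GFP, and in the MIG group the same retrovirus (MSCV-IRES-GFP) without BATF. Both groups were stimulated with 100 ng/ml gp33 for 1 day, spun with virus for 90 minutes, kept in activation for 1 day and grown in 10 ng/ml IL-2 for 2 days. Sorted CD8+ GFP+ cells then spent 2 days in 1 ng/ml IL-2 before poly(A) RNA sequencing. BATF is driven by the vector and not by its own promoter, so the comparison is of forced expression in cultured cells. Each group had 2 libraries, and the sources used here do not say whether these came from separate mice. Every p-value below therefore speaks of the variation among these 4 libraries alone, some of which may be technical.

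ZBTB proteins join an N-terminal BTB domain, which lets them pair and recruit corepressors such as NCOR, BCOR and histone deacetylases, to C-terminal C2H2 zinc fingers, which read DNA. Most known members act as repressors. In T cells, ThPOK (Zbtb7b) sets the CD4 helper lineage, LRF (Zbtb7a) shares part of that task, and PLZF (Zbtb16) directs innate-like T cells. A pair of members by symbol are not ZBTB proteins. Zbtb8os encodes archease, a cofactor of the tRNA ligase, and Zbtb11os1 is a transcript on the strand opposite to Zbtb11.

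The BATF libraries held 19004726 and 21835962 fragments and the MIG libraries 24795707 and 20354627. Batf itself stood at 1342 and 934 CPM (counts scaled to library size) in BATF and at 36.1 and 26.5 CPM in MIG, so the labels matched the overexpressed gene. CPM carry TMM scaling (a trimmed mean of log ratios between libraries) and are used below for 1 gene across libraries. FPKM, which also divide by transcript length, are used to compare genes. T cell markers were high in every library, with 6 of 6 listed genes (the CD3 chains, Cd2, Cd8a and Cd8b1) detected and summing to 2238 and 2504 CPM in BATF and 2778 and 2824 CPM in MIG. In bulk RNA, fewer cells with a transcript and less of it per cell cannot be told apart.

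All 42 members had fragments in all 4 libraries, and 40 passed the filter on low counts and were tested. Zbtb32 rose 3.66-fold in BATF cells, and it was the 1 member called. Of the 40 tested members 1 (2.5%) was higher at an adjusted p under 0.05 (quasi-likelihood test of edgeR, Benjamini-Hochberg over 13008 genes), against 0.884% of all genes tested. The number called lower was 0 of 40, against 0.208% of all genes, and 1.09% of all genes were called in either direction. At an unadjusted p under 0.05, edgeR had 4 members higher (Zbtb32, Zbtb7b, Zbtb38 and Zbtb42), against 6.69% of all genes, and 1 lower (Zbtb18), against 4.09%. DESeq2, which gave an adjusted p to 39 of the members, called 3 higher (Zbtb32, Zbtb7b and Zbtb38), against 2.21% of the 11999 genes to which it gave one, and 0 lower, against 0.825%. Limma-voom called 1 of 40 higher (Zbtb32), against 0.753% of all genes, and 0 lower, against 0.192%. The members within 0.2 of no change on the log2 scale numbered 27 of 40, or 67.5%, close to the 65.5% of all genes tested. The median log2 fold change was −0.02 over the 40 members and −0.01 over all genes. The BATF and MIG libraries did not overlap in 20 of the 40 members, against 38.7% of all genes. In 10 members BATF lay higher, against 19.2% of all genes, and in 10 lower, against 19.4%.

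**Figure D1:**
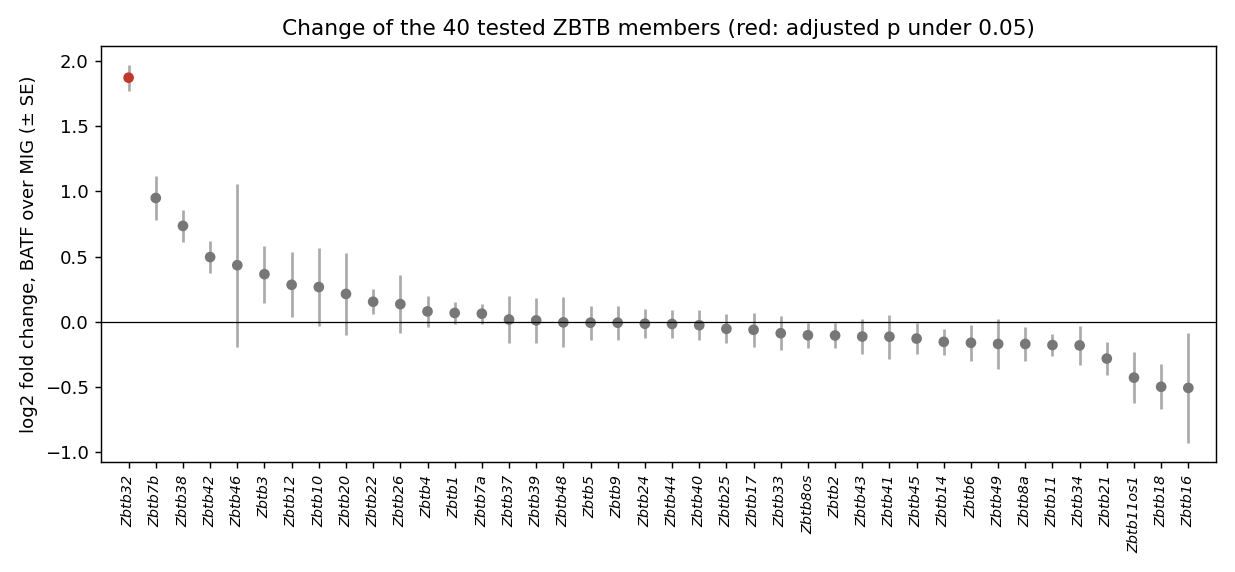
Log2 fold change (BATF over MIG, points) with its standard error (bars) for the 40 tested members, ordered by size; red marks an adjusted p under 0.05. Zbtb32 stands alone at 1.87, followed by Zbtb7b at 0.95 and Zbtb38 at 0.74, and 27 of the 40 members lie within 0.2 of 0.

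Zbtb32, also called PLZP or ROG (repressor of GATA), is induced when T cells are activated, and in mice it has been described as a brake on the T cell response. It measured 76.2 and 79.9 CPM in the BATF libraries and 22.2 and 20.4 CPM in the MIG libraries. Both BATF libraries lay far above both MIG libraries, and the libraries of each group lay close together. Its log2 fold change was 1.87 ± 0.10 SE (adjusted p = 0.00234, edgeR, n = 2 per group). These values rest on 1446 and 1738 fragments in BATF and 543 and 421 in MIG. Zbtb32 passed in all 12 alternative fits that use no replicate number, among them those that left out each library in turn, with log2 fold changes from 1.79 to 1.93. Per length it stood at 47.1 and 50.1 FPKM in BATF and at 14.1 and 12.5 FPKM in MIG. That placed it at rank 2 of the 42 members in BATF, above Zbtb7a, and at rank 9 in MIG. The only member above it in BATF was Zbtb8os, which is not a ZBTB protein. Zbtb8os held 20.85% of the FPKM summed over the family in BATF and 24.25% in MIG. Within the same sums, Zbtb32 made up 11.8% in BATF and 3.49% in MIG. Its exons overlapped no other gene on either strand in the GENCODE M21 basic annotation, which is on a later build than the deposited counts and is used here for gene names and exon overlap alone.

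Zbtb32 also carried the change in the summed level of the family. All 42 members together came to 1170 and 1146 CPM in BATF and 1094 and 1092 CPM in MIG. Without Zbtb32, the sums were 1093 and 1066 CPM in BATF and 1072 and 1072 CPM in MIG, and the ranges then overlapped.

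The promoters of the family were read for the site that BATF and JUN bind as a pair, since BATF is the factor added here. RefSeq (build GRCm38.p6) gave 50 promoter windows, each 250 bases before and 50 bases after a transcription start, for 37 of the 42 members. Zbtb10, Zbtb16, Zbtb40, Zbtb48 and Zbtb7c had no entry. The AP-1 site TGAGTCA, on either strand, stood in 1 of the 50 windows (2.0%), against 5.2% of all 32851 windows, and that window belongs to Zbtb46. With any middle base (TGANTCA, which includes TGAGTCA) the count was again 1 of 50, against 7.81% of all windows. Both Zbtb32 windows lack these letters, which says nothing about sites elsewhere at the gene. They are shown because Zbtb32 is the member that rose, with CCAAT (either strand) in capitals. This motif was searched after the letters had been seen, and it stood in 16 of the 50 family windows (32.0%), against 37.4% of all windows. The first window, chr7:30598860-30599159 on the minus strand, holds 4 matches, where 3.37% of all windows hold 3 or more, and the second, chr7:30592893-30593192 on the minus strand, holds 0. The Zbtb46 window, chr2:181424339-181424638 on the minus strand, has its AP-1 match in capitals. Sequences run 5′ to 3′ along the gene.
Zbtb32 first window: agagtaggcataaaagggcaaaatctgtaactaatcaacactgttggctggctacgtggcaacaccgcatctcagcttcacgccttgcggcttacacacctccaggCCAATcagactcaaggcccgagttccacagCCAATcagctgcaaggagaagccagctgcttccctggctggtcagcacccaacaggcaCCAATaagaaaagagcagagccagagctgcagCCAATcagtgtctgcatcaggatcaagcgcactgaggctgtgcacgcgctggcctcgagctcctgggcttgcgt
Zbtb32 second window: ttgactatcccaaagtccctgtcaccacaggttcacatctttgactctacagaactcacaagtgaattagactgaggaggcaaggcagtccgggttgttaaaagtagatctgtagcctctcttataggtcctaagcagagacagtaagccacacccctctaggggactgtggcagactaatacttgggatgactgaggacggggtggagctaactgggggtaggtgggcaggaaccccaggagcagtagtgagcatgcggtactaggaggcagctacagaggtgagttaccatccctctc
Zbtb46 window: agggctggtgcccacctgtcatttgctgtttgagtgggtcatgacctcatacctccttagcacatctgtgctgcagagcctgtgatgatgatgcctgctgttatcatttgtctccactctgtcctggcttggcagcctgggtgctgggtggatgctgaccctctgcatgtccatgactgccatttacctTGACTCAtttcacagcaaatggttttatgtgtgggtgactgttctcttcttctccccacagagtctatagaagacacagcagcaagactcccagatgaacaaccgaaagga

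The gene of the Zbtb46 window was at the edge of detection in these cells. Zbtb46, a factor of classical dendritic cells, had 12 and 9 fragments in BATF and 5 and 12 in MIG, or 0.633 and 0.414 CPM in BATF and 0.204 and 0.582 CPM in MIG. The groups overlapped, and its log2 fold change of 0.43 ± 0.63 SE turned to −0.17 without MIG replicate 1.

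**Figure D2:**
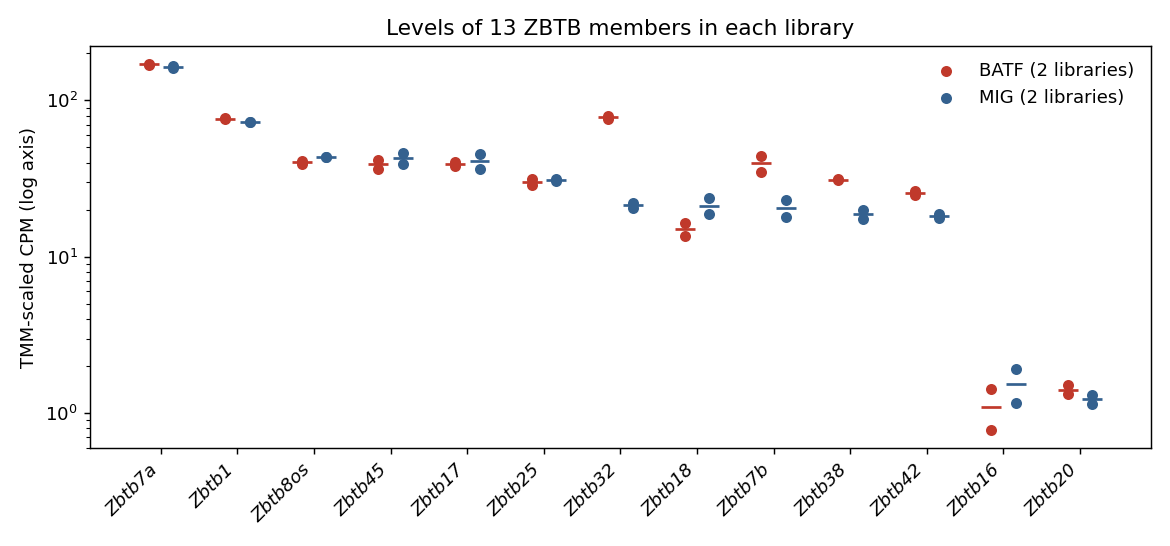
TMM-scaled CPM (log axis) of 13 members in each library, BATF in red and MIG in blue; points are libraries and bars are group means. Zbtb32, Zbtb7b, Zbtb38 and Zbtb42 and, by smaller margins, Zbtb7a, Zbtb1 and Zbtb20 have both BATF points above both MIG points, Zbtb18 and Zbtb8os have them below, and the points of Zbtb45, Zbtb25, Zbtb17 and Zbtb16 overlap.

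Zbtb7b and Zbtb7a are close relatives that act in the same lineage choice, and Zbtb7b lay below Zbtb7a per length in every library. Zbtb7b encodes ThPOK, which represses CD8 lineage genes in helper T cells. It measured 44.2 and 34.9 CPM in BATF and 23.0 and 17.9 CPM in MIG. The groups did not overlap, but each had a spread of several CPM. With all libraries its log2 fold change of 0.95 ± 0.17 SE missed the threshold (edgeR adjusted p = 0.0658). It passed in 5 of the 12 alternative fits: DESeq2 (adjusted p = 0.000136), edgeR without a count filter (0.00411), and edgeR without BATF replicate 2 (0.0142), MIG replicate 1 (0.0119) or MIG replicate 2 (0.0415). Without BATF replicate 1 the log2 fold change was 0.77 and the edgeR adjusted p was 0.124. Zbtb7a encodes LRF, which works beside ThPOK in helper T cells. It had the highest CPM of the family, at 169 and 170 CPM in BATF and 165 and 160 CPM in MIG (log2 fold change 0.06 ± 0.08 SE, edgeR adjusted p = 0.910). On the FPKM scale the ratio of Zbtb7b to Zbtb7a was 0.387 and 0.304 in BATF and 0.206 and 0.166 in MIG. Zbtb7c, the third gene of this subfamily, had 16 and 8 fragments in BATF and 6 and 9 in MIG and was not tested.

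Genes of the choice between the CD4 and CD8 lineages that are linked to ThPOK, among them coreceptors, Runx factors and factors that act before it, were set beside it. Of these 12 genes, all tested, 1 rose and 0 fell, and their median log2 fold change was −0.13. At an unadjusted p under 0.05 the counts were 3 higher (Myb, Runx1 and Gata3) and 3 lower (Cd8a, Cd8b1 and Tcf7). DESeq2 called 2 higher (Myb and Runx1) and 0 lower. Over all genes, the shares higher and lower were 0.884% and 0.208% in edgeR, 6.69% and 4.09% unadjusted, and 2.21% and 0.825% in DESeq2. Cd4 stayed near the floor, at 0.791 and 0.597 CPM in BATF and 0.490 and 0.534 CPM in MIG. Cd8a stood at 423 and 599 CPM in BATF and 659 and 750 CPM in MIG, and Cd8b1 at 498 and 593 CPM in BATF and 675 and 656 CPM in MIG. Both BATF libraries were below both MIG libraries for each CD8 chain, and neither gene passed (edgeR adjusted p = 0.337 for each). Runx3, which silences Cd4 and Zbtb7b in CD8 T cells, stood at 186 and 176 CPM in BATF and 196 and 195 CPM in MIG (edgeR adjusted p = 0.766). Runx1 stood at 42.8 and 27.9 CPM in BATF and 21.0 and 12.1 CPM in MIG (edgeR adjusted p = 0.1985). Gata3 stood at 50.9 and 59.8 CPM in BATF and 42.45 and 47.5 CPM in MIG (0.402). Tcf7 stood at 232 and 207 CPM in BATF and 508 and 318 CPM in MIG (0.123). The groups did not overlap for Runx1, Gata3 and Tcf7, and none of them passed in edgeR. The gene that rose was Myb, a factor of T cell progenitors, at 43.8 and 38.6 CPM in BATF and 13.3 and 9.90 CPM in MIG (log2 fold change 1.82, SE 0.17, edgeR adjusted p = 0.00955).

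Of the 8 members listed for a role in T cells, 1 rose (Zbtb32), 0 fell, and 7 did not pass. At an unadjusted p under 0.05, Zbtb32 and Zbtb7b were higher and 0 of the 8 were lower, and DESeq2 gave the same counts. Among all genes, the shares higher and lower were 0.884% and 0.208% in edgeR, 6.69% and 4.09% unadjusted, and 2.21% and 0.825% in DESeq2. Zbtb1, needed for lymphoid development in mice, stood at 75.5 and 77.0 CPM in BATF and 72.4 and 73.1 CPM in MIG, a log2 fold change of 0.07 ± 0.08 SE. Zbtb17 encodes MIZ-1, a partner of MYC that also acts in the lymphocyte response to IL-7. It stood at 40.2 and 38.2 CPM in BATF and 45.4 and 36.4 CPM in MIG, and the groups overlapped. Zbtb25 stood at 31.2 and 28.6 CPM in BATF and 30.5 and 31.6 CPM in MIG, also with overlap. These 3 genes were well measured, with SEs of at most 0.13 on the log2 scale.

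A pair of members of that list were scarce. Zbtb16, which encodes PLZF, stood at 1.42 and 0.781 CPM in BATF and at 1.92 and 1.17 CPM in MIG, and its log2 fold change of −0.51 had an SE of 0.42. Zbtb20, a repressor best known from liver and brain, stood at 1.32 and 1.52 CPM in BATF and 1.14 and 1.31 CPM in MIG, a log2 fold change of 0.21 ± 0.32 SE. At 17 to 47 fragments per library, changes of this size were not detectable for either gene.

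Of the 3 members that bind methylated CpG, 0 passed in either direction with all libraries. At an unadjusted p under 0.05 edgeR had 1 higher and 0 lower, and DESeq2 called 1 higher and 0 lower, Zbtb38 in both cases. For all genes, the shares higher and lower were 0.884% and 0.208% in edgeR, 6.69% and 4.09% unadjusted, and 2.21% and 0.825% in DESeq2. Zbtb38 stood at 31.3 and 30.9 CPM in BATF and at 20.0 and 17.4 CPM in MIG. The groups were apart, and the BATF libraries were nearly equal. Its log2 fold change of 0.74 ± 0.12 SE had an edgeR adjusted p of 0.0550. It passed in 5 of the 12 alternative fits, with DESeq2 (adjusted p = 0.00127), with edgeR under upper-quartile scaling (0.0468) or with no filter (0.0128), and without MIG replicate 1 (0.0196) or MIG replicate 2 (0.0422). Across the 12 fits its log2 fold change ran from 0.63 to 0.84 and its adjusted p reached 0.155. Zbtb33, which encodes Kaiso, stood at 39.7 and 37.6 CPM in BATF and 36.4 and 45.8 CPM in MIG. Zbtb4 stood at 28.9 and 31.0 CPM in BATF and 30.2 and 26.5 CPM in MIG. The groups overlapped for both, and on the FPKM scale the ratio of Zbtb38 to Zbtb4 was 2.13 and 1.96 in BATF and 1.30 and 1.29 in MIG.

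**Figure D3:**
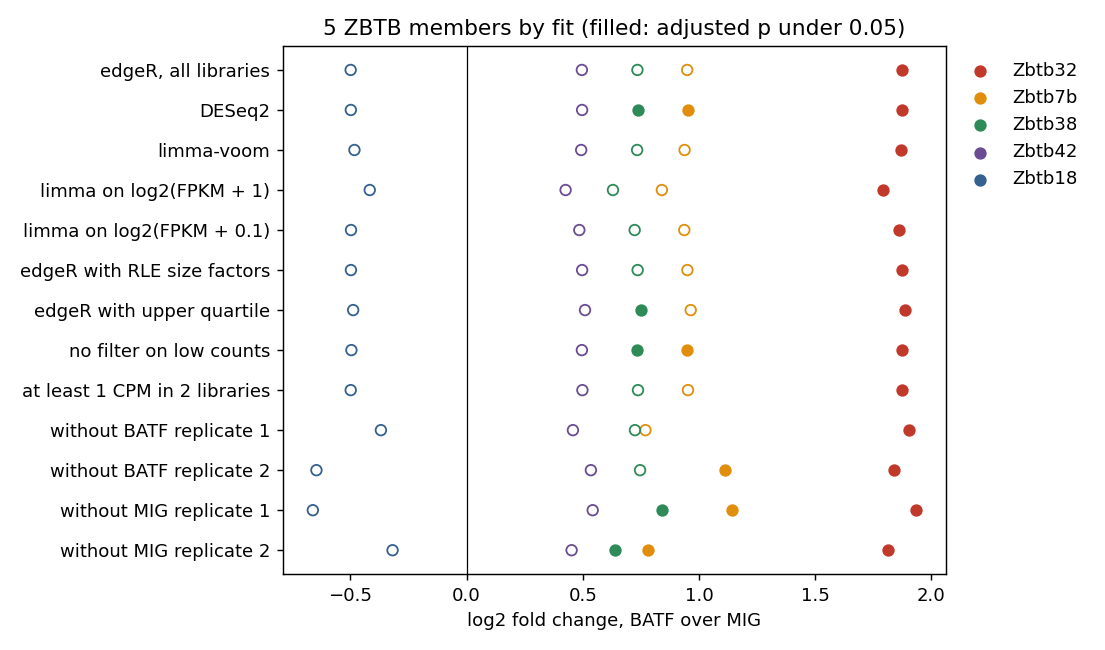
Log2 fold change (BATF over MIG) of 5 members in the edgeR fit with all libraries and in 12 alternative fits; filled points have an adjusted p under 0.05. Zbtb32 is filled in every fit, Zbtb7b and Zbtb38 in 5 alternatives each, and Zbtb42 and Zbtb18 in 0.

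Zbtb42 and Zbtb18 are close relatives and had fold changes of opposite sign. Zbtb18, also called RP58, is a repressor known from brain and muscle development. It stood at 13.5 and 16.4 CPM in BATF and at 18.7 and 23.7 CPM in MIG, which is −0.50 on the log2 scale (SE 0.17, edgeR adjusted p = 0.324). Zbtb42 stood at 26.3 and 24.95 CPM in BATF and at 18.7 and 17.6 CPM in MIG, which is 0.50 on the log2 scale (SE 0.12, edgeR adjusted p = 0.154). For each gene the groups did not overlap, and neither passed. On the FPKM scale the ratio of Zbtb42 to Zbtb18 was 2.26 and 1.73 in BATF and 1.14 and 0.856 in MIG. The difference between the 2 fold changes was not tested.

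Of the 4 members listed for telomeres, heterochromatin and upkeep of DNA methylation, edgeR called 0 in either direction, with 0 at an unadjusted p under 0.05 and 0 by DESeq2. For all genes, the shares higher and lower were 0.884% and 0.208% in edgeR, 6.69% and 4.09% unadjusted, and 2.21% and 0.825% in DESeq2. Zbtb24, which is mutated in a human immunodeficiency with loss of centromeric methylation, differed little between libraries, at 24.8 and 24.9 CPM in BATF and 24.8 and 25.4 CPM in MIG. Its known target Cdca7 stood at 106 and 104 CPM in BATF and 102 and 115 CPM in MIG. Zbtb48, which encodes the telomere protein TZAP, stood at 7.17 and 7.12 CPM in BATF and 7.72 and 6.60 CPM in MIG. Zbtb40 stood at 29.7 and 27.1 CPM in BATF and 29.6 and 28.2 CPM in MIG. Zbtb10, which binds a variant of the telomere repeat, was scarce at 1.53 and 1.61 CPM in BATF and 1.39 and 1.21 CPM in MIG.

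Ordered by mean FPKM over the 4 libraries, the family spanned 3 tiers. Members at 10 FPKM or more numbered 12, another 23 lay between 1 and 10 FPKM, and 7 lay under 1 FPKM. The median over all 42 members, tested or not, was 4.44 FPKM. It was 9.07 FPKM over all genes tested and 0.425 FPKM over the 22795 listed genes with a fragment. The top 4 were Zbtb8os, Zbtb7a, Zbtb32 and Zbtb45, and together they made up 45.2% of the family's FPKM in BATF and 41.5% in MIG. Of this, 20.85% in BATF and 24.25% in MIG came from Zbtb8os, which is not a ZBTB protein. Zbtb8os had 82.9 and 88.9 FPKM in BATF and 94.4 and 90.9 FPKM in MIG, the highest of the family, although its CPM of 39.1 and 41.2 in BATF and 43.1 and 43.2 in MIG were far below those of Zbtb7a. FPKM divide by transcript length, so the order by CPM is another one. Zbtb45 stood at 20.7 and 18.6 FPKM in BATF and 23.7 and 19.5 FPKM in MIG, with overlap. Zbtb25 and Zbtb1 followed at means of 20.3 and 19.3 FPKM, within the spread of Zbtb45. Zbtb7b held rank 12 in BATF and rank 17 in MIG, and Zbtb38 held rank 15 in BATF and rank 21 in MIG. The 7 members under 1 FPKM were Zbtb26, Zbtb20, Zbtb16, Zbtb46, Zbtb10, Zbtb7c and Zbtb8b.

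**Figure D4:**
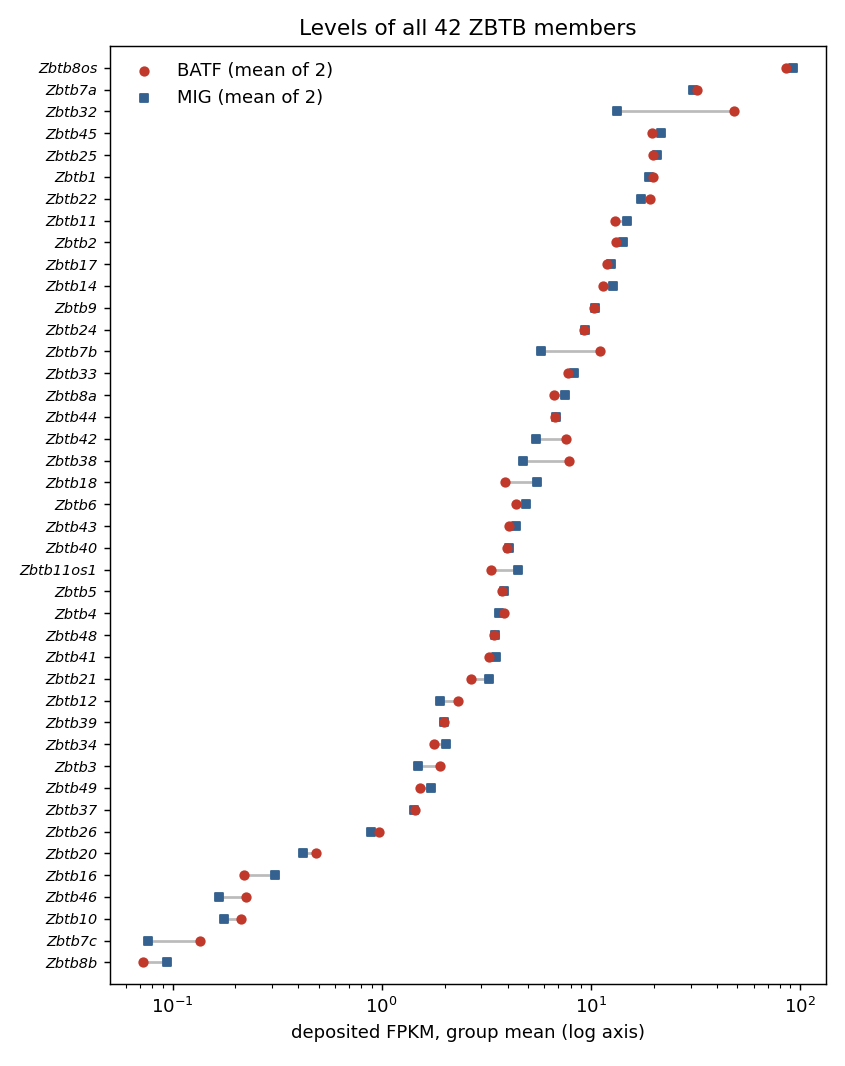
Deposited FPKM (group means of 2 libraries, log axis) of all 42 members from the highest to the lowest, BATF as red circles and MIG as blue squares. The grey line between the symbols is longest for Zbtb32 among the members above 1 FPKM, and the lowest members, Zbtb7c and Zbtb8b, lie near 0.1 FPKM.

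Among the members with no list of their own, Zbtb2, Zbtb8a, Zbtb11, Zbtb11os1, Zbtb14, Zbtb21, Zbtb34 and Zbtb49 had both BATF libraries below both MIG libraries, and none of these 8 passed in edgeR. Over the whole family BATF lay lower in this way in 10 of the 40 tested members, against 19.4% of all genes tested. Zbtb21 stood at 14.7 and 15.2 CPM in BATF and 17.5 and 18.9 CPM in MIG (log2 fold change −0.28 ± 0.13 SE). Zbtb11, needed for mitochondrial function, stood at 64.3 and 64.0 CPM in BATF and 70.2 and 75.0 CPM in MIG (−0.18 ± 0.09 SE). Zbtb11os1 stood at 3.85 and 3.95 CPM in BATF and 5.64 and 4.85 CPM in MIG (−0.43 ± 0.20 SE). Its exons overlap those of Zbtb11 on the other strand, and with a counting strand not given in the sources used here, reads of the 2 genes cannot be told apart. Zbtb11 also shares exon bases with Pcnp on the other strand, which stood at 120 and 125 CPM in BATF and 122 and 129 CPM in MIG. In all, 13 of the 42 members share annotated exon bases with another gene, and Zbtb32, Zbtb7b, Zbtb38, Zbtb42 and Zbtb18 are not among them. Zbtb14, described as a repressor of Myc, stood at 41.1 and 37.6 CPM in BATF and 43.3 and 44.2 CPM in MIG. Zbtb22 stood at 46.8 and 47.3 CPM in BATF and 44.0 and 40.6 CPM in MIG, and Zbtb3 at 3.59 and 3.49 CPM in BATF and 2.82 and 2.67 CPM in MIG. For Zbtb21, Zbtb11, Zbtb11os1, Zbtb14, Zbtb22 and Zbtb3 the edgeR adjusted p lay between 0.524 (Zbtb21) and 0.711 (Zbtb14).

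Zbtb8a stood at 13.9 and 13.6 CPM in BATF and 15.5 and 15.4 CPM in MIG. Zbtb2 stood at 41.5 and 40.5 CPM in BATF and 42.8 and 45.4 CPM in MIG, Zbtb44 at 63.9 and 54.8 CPM in BATF and 57.7 and 62.3 CPM in MIG, and Zbtb9 at 27.3 and 27.2 CPM in BATF and 29.6 and 25.1 CPM in MIG. The groups overlapped for Zbtb44 and Zbtb9. Zbtb5, Zbtb6, Zbtb12, Zbtb26, Zbtb34, Zbtb37, Zbtb39, Zbtb41, Zbtb43 and Zbtb49 were the others tested, and of these Zbtb34 and Zbtb49 alone did not overlap. Over these members, from Zbtb8a on, the edgeR adjusted p lay between 0.783 and 0.999, and the log2 fold changes between −0.18 (Zbtb34) and 0.28 (Zbtb12). Zbtb6 and Zbtb26 share exon sequence on the same strand, so their counts may have been split between them. Zbtb8b had 6 and 3 fragments in BATF and 5 and 8 in MIG and was not tested.

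Relatives of the family that go by other names were listed as well. Of 14 listed symbols 10 were in the table, and the 4 absent ones (Zfp161, Zfp238, Zfp295 and Zfp509) are older symbols. Of 8 tested, 1 fell and 0 rose. At an unadjusted p under 0.05 the counts were 1 higher and 2 lower, and DESeq2 called 0 higher and 1 lower. Across all genes, the shares higher and lower were 0.884% and 0.208% in edgeR, 6.69% and 4.09% unadjusted, and 2.21% and 0.825% in DESeq2. Nacc2, a BTB protein without zinc fingers, stood at 2.06 and 2.02 CPM in BATF and at 6.13 and 5.97 CPM in MIG (log2 fold change −1.57 ± 0.20 SE, edgeR adjusted p = 0.0257). Its call was lost with limma on log2(FPKM + 1) (adjusted p = 0.0546) and log2(FPKM + 0.1) (0.0587). Bcl6, a repressor that acts in follicular helper and memory T cells, was low at 3.59 and 3.86 CPM in BATF and 5.31 and 4.95 CPM in MIG. It lay lower in both BATF libraries and did not pass (edgeR adjusted p = 0.461). Patz1, a BTB zinc finger factor that helps silence Zbtb7b in CD8 T cells, stood at 52.9 and 42.3 CPM in BATF and 51.7 and 44.0 CPM in MIG. Zfp131 was listed at 0 in every library.

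Of the 18 corepressors and partners of BTB proteins tested, edgeR called 0 in either direction, while an unadjusted p under 0.05 was reached by 1 upward and 0 downward, and DESeq2 called 1 higher (Sin3b) and 0 lower. Their median log2 fold change was 0.03. Among all genes, the shares higher and lower were 0.884% and 0.208% in edgeR, 6.69% and 4.09% unadjusted, and 2.21% and 0.825% in DESeq2. The list sums to 2634 and 2525 CPM in BATF and 2682 and 2490 CPM in MIG.

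Of 15 tested genes linked to single ZBTB factors, 3 rose and 0 fell, against 0.884% and 0.208% of all genes. DESeq2 called 4 higher (Cdkn1a, Cdkn2b, Ctla4 and Prdm1) and 0 lower, against 2.21% and 0.825% of all genes. At an unadjusted p under 0.05 edgeR had the same 4 higher and 1 lower (Max), against 6.69% and 4.09%. Cdkn1a and Cdkn2b encode the cell cycle inhibitors p21 and p15, both textbook targets of MIZ-1 and MYC. Cdkn1a stood at 123 and 118 CPM in BATF and at 55.5 and 61.1 CPM in MIG (log2 fold change 1.05 ± 0.09 SE, edgeR adjusted p = 0.00839). Cdkn2b stood at 10.8 and 15.6 CPM in BATF and at 2.57 and 2.38 CPM in MIG (edgeR adjusted p = 0.0113), while Zbtb17 and Myc did not pass. Max stood at 61.95 and 69.5 CPM in BATF and 77.3 and 79.4 CPM in MIG. Its groups did not overlap, and it did not pass (edgeR adjusted p = 0.363). Prdm1, which encodes BLIMP-1, a reported partner of ZBTB32 in mouse T cells, stood at 38.7 and 31.3 CPM in BATF and at 15.9 and 11.5 CPM in MIG (edgeR adjusted p = 0.0279). The call of Prdm1 was lost with limma on log2(FPKM + 1) (adjusted p = 0.0899) and log2(FPKM + 0.1) (0.0627). These lists were drawn up with earlier results of these data known, so their counts are no independent evidence.

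Several members are also expressed by other blood cells, so markers of those cells are given. The B cell markers reported (4 genes) sum to 12.97 and 11.8 CPM in BATF and 17.9 and 14.3 CPM in MIG, almost all of it Cd79b, with Ms4a1 and Pax5 under 0.2 CPM in every library. The myeloid and dendritic list (8 genes in the table) sums to 50.8 and 44.5 CPM in BATF and 31.3 and 32.4 CPM in MIG. This sum was higher in both BATF libraries, as were Zbtb32, Zbtb7b and Zbtb38, and its part in their values was not tested. Of its 3 genes tested, edgeR called 0, an unadjusted p under 0.05 was reached by 2 upward (Itgax and Xcr1) and 0 downward, and DESeq2 called Itgax higher. Over all genes, the shares higher and lower were 0.884% and 0.208% in edgeR, 6.69% and 4.09% unadjusted, and 2.21% and 0.825% in DESeq2. Itgax made up most of the sum, at 34.4 and 31.5 CPM in BATF and 18.1 and 21.7 CPM in MIG (edgeR adjusted p = 0.0716). Xcr1, a marker of cross-presenting dendritic cells, stood at 7.59 and 9.42 CPM in BATF and 4.29 and 5.92 CPM in MIG, which is 1.67-fold (edgeR adjusted p = 0.238). The groups did not overlap for Itgax and Xcr1. Itgam stood at 6.49 and 2.62 CPM in BATF and 7.68 and 3.20 CPM in MIG, with overlap, while Csf1r, Flt3, Lyz2, Siglech and Adgre1 were under 1 CPM in every library. The CD4 and regulatory T cell list (3 genes) sums to 3.53 and 2.44 CPM in BATF and 4.05 and 2.96 CPM in MIG, and that of NK, NKT and gamma-delta T cells (4 genes in the table) to 1.42 and 1.01 CPM in BATF and 1.23 and 1.12 CPM in MIG. Of the 6 T cell markers given at the start, edgeR and DESeq2 called 0. At an unadjusted p under 0.05 edgeR had 0 higher and 3 lower (Cd8a, Cd8b1 and Cd3e), against 6.69% and 4.09% of all genes. Their median log2 fold change was −0.20.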

How the data were processed

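The submitters' processing notes name TopHat2 2.1.1, Cufflinks 2.2.2, Cuffdiff and the mm9 build, with annotation and counting strand not given in the sources used here. Per the file headers, the deposited Cuffdiff table holds estimated counts (fragments per gene and library before scaling) and the authors' FPKM. Of the estimated counts 97.6% were whole, and all were rounded to whole numbers here. The table numbers replicates 0 and 1 and the titles 1 and 2; 0 was read as 1, so numbers only name libraries. In R 4.3.3, edgeR 4.0.16 (filterByExpr, TMM factors 0.988 to 1.01, glmQLFit and glmQLFTest, no covariate) tested BATF against MIG in 13008 genes at a Benjamini-Hochberg adjusted p of 0.05, with a biological coefficient of variation of 11.3%. The SE is the unshrunk coefficient over the square root of F. With 2 libraries per group, precision depends on variance estimates pooled over genes. On simulated counts with 100 genes changed 2-fold and 100 changed 4-fold, tested over 12732 genes, the BATF against MIG fit called 99% and 100%. The simulation gave every gene the same coefficient of variation of 0.11 and changed only genes at 5 CPM or more. Lower genes and genes that vary more were not covered, so these shares do not bound the change of an uncalled member. Alternatives used DESeq2 1.42.0, limma 3.58.1 (voom, and log2(FPKM + 1) or log2(FPKM + 0.1)), other scalings and filters, a replicate block and 1 library left out. Full values were given for Batf, called members, 8 members with a T cell role, the 6 with the largest absolute log2 fold change and the 4 with the highest FPKM; others stand by role or range, and in the related lists called genes and 5 preset genes are named, with further genes added after their values were seen. Members and lists were chosen with earlier results of these data known. Of the B cell markers, 1 is not reported here.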

Additional observations from a re-analysis of the deposited data

How the results depend on the processing

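Zbtb32 passed in all 13 alternatives, with log2 fold changes from 1.79 to 1.93 and a highest adjusted p of 0.0118 (limma on log2(FPKM + 1)). Its lowest adjusted p, 1.86e-83, came from edgeR with the replicate block, which rests on a pairing that is not established. The number of members called higher was 1 with all libraries, 3 with DESeq2, 2 with upper-quartile scaling, 3 with no filter on low counts, 4 with the replicate block, and 1 to 3 with 1 library left out. The number called lower was 1 with the block (Zbtb18) and 0 in each other alternative. Over all genes, 142 calls became 364 with DESeq2, 44 with limma on log2(FPKM + 1), 81 on log2(FPKM + 0.1), 349 with no filter, 1504 with the block and 164 to 327 with 1 library left out (164 without BATF replicate 1, 214 without BATF replicate 2, 317 without MIG replicate 1 and 327 without MIG replicate 2). In the 4 related lists, 4 genes higher became 7 with DESeq2, 7 with no filter, 12 with the block and 4 to 7 with 1 library left out; 1 gene lower (Nacc2) became 0 on both FPKM scales, 2 with no filter, 8 with the block and 1 to 3 with 1 library left out. Signs were followed fit by fit in 26 members, those given full values and those beyond 0.15 on the log2 scale. Among these, signs turned with 1 library left out for Zbtb25 (0.010 without BATF replicate 2, from −0.12 to 0.010 over the 4 fits), Zbtb17 (0.11 without MIG replicate 1, from −0.21 to 0.11) and Zbtb46 (−0.17 without MIG replicate 1, from −0.17 to 1.32). Other tested members with small changes also ran across 0 over the 13 alternatives, among them Zbtb33 (−0.24 to 0.084), Zbtb41 (−0.33 to 0.13) and Zbtb26 (−0.050 to 0.34). The cause was not tested.

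Same-numbered libraries shared only a number: their deviations from the group means correlated at 0.181 over 13008 genes, and with 2 pairs this does not establish a pairing. The block leaves 1 residual degree of freedom, and under it Zbtb7b, Zbtb38, Zbtb42 and Zbtb18 passed besides Zbtb32. With 1 library left out, the variation of the lone library is taken from that of the remaining pair. A count of zinc fingers in the proteins was not run. Members under about 2 CPM had SEs of 0.30 to 0.63 and could show large changes only.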
